A study of Mus musculus with 12 samples.

Results

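The perilipins, the CIDE proteins and the FITM proteins coat, fuse and bud the lipid droplets in which liver cells store triglyceride. The 9 genes listed for the set were Plin2, Plin3, Plin4, Plin5, Cidea, Cideb, Cidec, Fitm1 and Fitm2, chosen by symbol. Of these, 8 are described here, out of 20143 genes in the deposited table, and Cidea was not analysed here. All 8 are protein-coding genes named through their Ensembl identifiers, and all 8 passed the minimum mean of 10 CPM (counts scaled to the same total in each library) set for testing.

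Liver RNA was sequenced from 6 mice lacking Hsd17b13 (KO) and 6 wild-type mice (WT), 1 library per mouse. Mice of both genotypes entered the study at 8 to 10 weeks of age and then received CDAA-HFD, a high-fat diet deficient in choline with defined amino acids, during 12 weeks. No group on another diet was used here, so the values do not show what the diet itself did. The labels state neither how the KO allele was made nor the strain or sex. Hsd17b13, which encodes a lipid droplet enzyme of hepatocytes, was at 1.18 ± 0.181 CPM in KO and 347 ± 36.04 CPM in WT (SD, n = 6 each), so the libraries followed their labels. KO mice 1 and 3 had been seen to stand apart from the other KO mice in genes of chromosome 5, and each difference was therefore also computed without them. Libraries held about 46300000 to 77900000 counts, and the lowest value of any of the 8 genes stood for 451 counts.

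A lipid droplet is a core of neutral lipid under a single layer of phospholipid, with proteins bound to its surface. Perilipins cover that surface and control the access of lipases, CIDE proteins sit where 2 droplets touch and pass lipid from one to the other, and FITM proteins act in the endoplasmic reticulum where new droplets form. In hepatocytes Plin2 is the main coat protein, and its protein and messenger RNA are used as a sign of steatosis. Several of these genes are known targets of the peroxisome proliferator-activated receptors (PPARs), nuclear receptors that respond to fatty acids.

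None of the 8 genes differed between genotypes past the threshold. In the limma fit of 9186 genes, 0 of 8 rose and 0 fell at an adjusted p of 0.05, while 0.109% of all genes tested rose and 0.0435% fell, 0.152% in all. At an unadjusted p under 0.05 there were 2 of 8 with a higher KO mean, Plin4 and Fitm1, and 0 of 8 with a lower one. Over all genes 9.8% reached that level, 4.51% with a higher and 5.29% with a lower KO mean. Each difference is the KO mean minus the WT mean on the log2(CPM + 1) scale. They were positive for 5 of the 8 genes, with a median of 0.09, and positive for 45.6% of all genes tested, with a median of -0.01. In 0 of 8 did the KO and WT values fail to overlap, which was so for 0.893% of all genes. The median standard error was 0.10 for the 8 genes and 0.08 for all genes. These are whole livers, in which fewer cells of a type and less RNA per cell cannot be told apart.

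Per kilobase of annotated exon, Plin2 was the most abundant of the 8 messenger RNAs and Cideb the second. Plin2 was at 169 ± 25.3 CPM per kb in KO and 193 ± 33.1 in WT, and Cideb at 106 ± 5.33 in KO and 99.8 ± 7.96 in WT. The ranges of these 2 genes over the 12 mice overlapped neither each other nor those of the remaining 6 genes. Those 6 followed in the order Cidec, Plin3, Plin5, Fitm2, Fitm1 and Plin4, from a mean of 18.6 ± 4.26 CPM per kb over all 12 mice for Cidec to 10.6 ± 3.34 for Plin4. Every neighbouring pair in that order had overlapping ranges. Of the summed CPM per kb of the 8 genes, Plin2 made up 45.4% ± 3.58 in KO and 50.5% ± 4.13 in WT, Plin4 3.35% ± 1.32 in KO and 2.36% ± 0.389 in WT, and Fitm1 3.33% ± 0.421 in KO and 2.54% ± 0.350 in WT. These shares describe the mix of transcripts and were not tested.

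**Figure D1:**
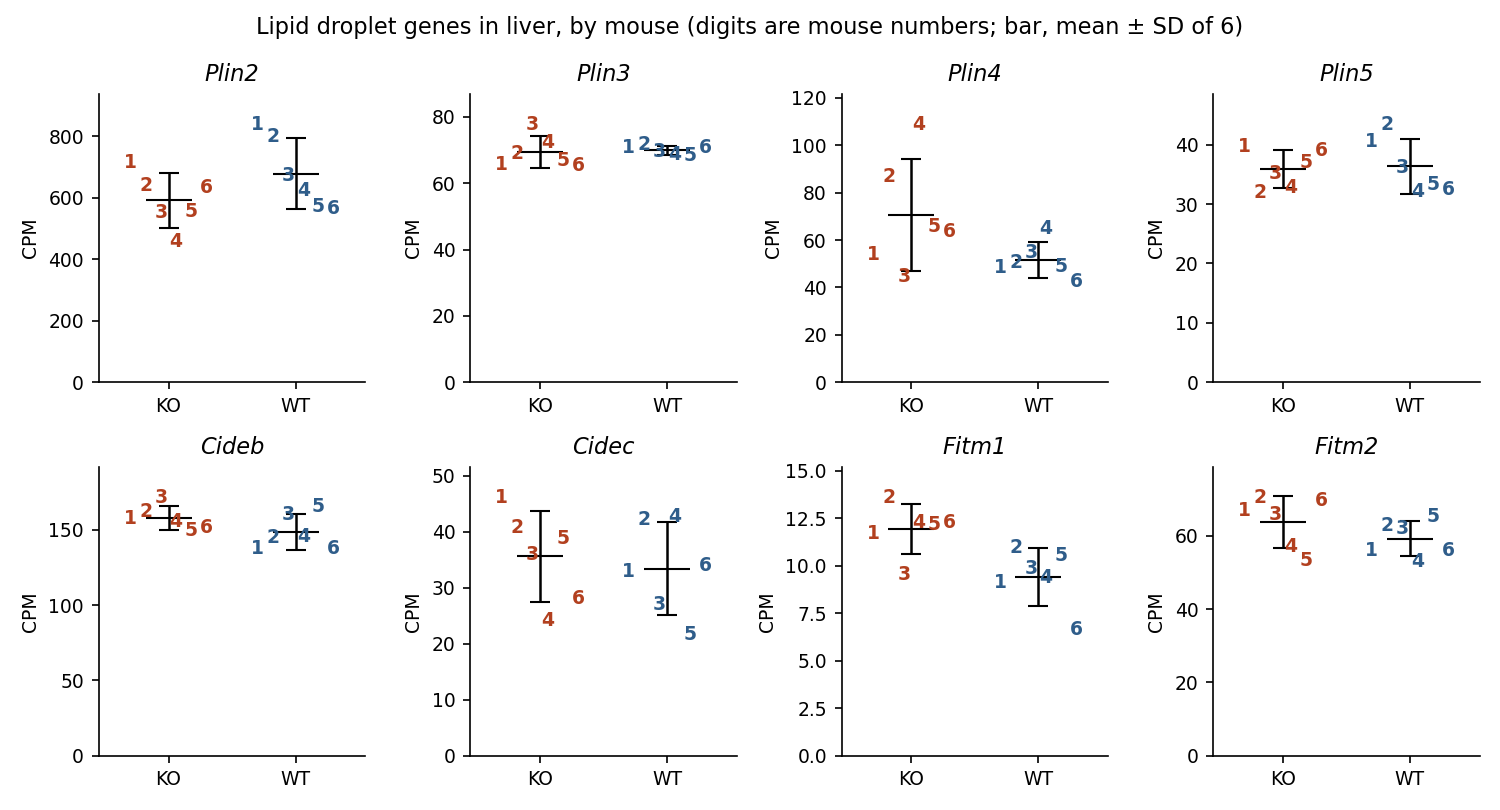
CPM of 8 lipid droplet genes in each liver, KO on the left and WT on the right of each panel, with digits giving the mouse number and bars the mean ± SD of 6 mice. The genotypes overlap in every panel, and 5 of 6 KO mice lie above all WT mice for Fitm1.

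Plin2, the coat protein bound to most hepatocyte droplets, ranged from 459 to 714 CPM in KO (median 595) and from 567 to 839 CPM in WT (median 647). Its gene (ENSMUSG00000028494) spans chr4:86648386-86670060 on the minus strand of mm10. The 2 highest values were in WT mice 1 and 2, and 3 KO mice lay below all WT mice. The means were 592 ± 89.0 CPM in KO and 679 ± 116 in WT, a log2 difference of -0.19 (SE 0.12, 95% interval -0.46 to 0.07, limma adjusted p = 0.672, exact permutation p = 0.175). In ratio terms the interval runs from 0.729 to 1.05 times WT. Without KO mouse 4 the difference was -0.12, and without WT mouse 1 it was -0.13. Plin2 is also expressed in lipid-laden macrophages. Markers of lipid-laden and recruited macrophages summed to 2097 ± 307 CPM in KO and 3008 ± 677 in WT. Of 14 such markers, 13 had negative differences, 9 of them at an unadjusted p under 0.05 and 0 past the adjusted threshold. The 14 include Spp1, a chromosomal neighbour of Hsd17b13, at 182 ± 58.6 CPM in KO and 384 ± 171 in WT. Markers of Kupffer cells, the resident macrophages of the liver, went the other way, with positive differences in 5 of 5 tested, all at an unadjusted p under 0.05 and 0 past the adjusted threshold, and sums over all 7 listed of 427 ± 66.0 CPM in KO and 301 ± 53.8 in WT. Markers of activated stellate cells had negative differences in 7 of 7 tested, 6 at an unadjusted p under 0.05 and 0 past the adjusted threshold, with sums over all 10 listed of 732 ± 73.8 CPM in KO and 1008 ± 231 in WT. At an unadjusted p under 0.05, 4.51% of all genes tested had a higher and 5.29% a lower KO mean. Summed hepatocyte markers were at 79139 ± 6087 CPM in KO and 77645 ± 7286 in WT. The largest part of that sum was Alb, at 44794 ± 4817 CPM in KO and 44936 ± 5052 in WT. Differences were positive in 9 of 10 hepatocyte markers, 0 at an unadjusted p under 0.05, with a median of 0.10. Over all genes tested 45.6% were positive, with a median of -0.01. The part of these cell types in the Plin2 values was not tested.

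Plin3, a perilipin that moves between the cytosol and small droplets, ranged from 65.5 to 77.8 CPM in KO (median 67.9) and from 68.3 to 71.6 CPM in WT (median 70.1). Its gene (ENSMUSG00000024197) spans chr17:56277476-56292873 on the minus strand of mm10. The WT mice were closer together than the KO mice, and the KO range enclosed the WT range. Its coefficient of variation was 6.90% in KO and 1.85% in WT. The log2 difference was -0.01 (SE 0.05, 95% interval -0.12 to 0.09, limma adjusted p = 0.969), which makes Plin3 the gene of the set with the narrowest interval.

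Plin4, a perilipin best known from fat cells and muscle, had the widest spread among KO mice relative to its mean, with a coefficient of variation of 33.2% in KO and 14.7% in WT. Its gene (ENSMUSG00000002831) spans chr17:56100591-56109803 on the minus strand of mm10. It ranged from 44.5 to 109 CPM in KO (median 64.7) and from 42.5 to 64.9 CPM in WT (median 49.7). KO mice 4 and 2 held 109 and 86.7 CPM, KO mouse 5 lay just above the highest WT mouse, and KO mice 3 and 1 held 44.5 and 53.9 CPM, within the WT range. The means were 70.5 ± 23.5 CPM in KO and 51.7 ± 7.59 in WT. The log2 difference of 0.39 (SE 0.18, 95% interval 0.01 to 0.78) did not pass (limma adjusted p = 0.501, exact permutation p = 0.0866). It was 0.26 without KO mouse 4 and 0.62 without KO mice 1 and 3, where the limma adjusted p was 0.0809. Plin4 lies next to Plin5. The 3 fat cell markers measured, Lipe, Fabp4 and Car3, did not pass. Lipe, the hormone-sensitive lipase, was at 16.8 ± 2.64 CPM in KO and 14.3 ± 1.68 in WT. Fabp4, a fatty acid carrier, was at 11.4 ± 2.47 CPM in KO and 13.9 ± 3.32 in WT. Car3 was far higher than both, at 1010 ± 187 CPM in KO and 961 ± 360 in WT, and its cell source was not tested. The other 7 fat cell markers listed were not analysed here.

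Plin5 couples droplets to mitochondria in tissues that burn fat. Its gene (ENSMUSG00000011305) spans chr17:56111601-56117596 on the minus strand of mm10. It ranged from 31.9 to 39.7 CPM in KO (median 36.1) and from 32.2 to 43.4 CPM in WT (median 34.7). The 2 highest values were again in WT mice 2 and 1, at 43.4 and 40.6 CPM, and the groups overlapped over nearly their whole range. The log2 difference was -0.01 (SE 0.08, 95% interval -0.19 to 0.17, limma adjusted p = 0.980).

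Cideb, the CIDE protein of normal liver, acts in droplet fusion and in loading lipid onto very low density lipoprotein. Its gene (ENSMUSG00000022219) spans chr14:55754050-55758458 on the minus strand of mm10. It ranged from 149 to 171 CPM in KO (median 157) and from 137 to 166 CPM in WT (median 145). Most KO mice lay within the WT range and KO mouse 3 above it. The means were 158 ± 7.94 CPM in KO and 149 ± 11.8 in WT, a log2 difference of 0.09 (SE 0.06, 95% interval -0.04 to 0.22, limma adjusted p = 0.694). Cideb shares 1136 of its 1488 exon bases with Nop9 on the opposite strand, and the sources used here do not say whether counting used the strand. Nop9, a nucleolar protein gene, was at 29.8 CPM in KO and 29.4 CPM in WT.

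Cidec, also called Fsp27, enlarges droplets by fusion and is known to be induced in fatty liver. Its gene (ENSMUSG00000030278) spans chr6:113424634-113435760 on the minus strand of mm10. It ranged from 24.1 to 46.0 CPM in KO (median 37.3) and from 21.7 to 42.7 CPM in WT (median 33.4). Both genotypes covered nearly the same span, with coefficients of variation of 22.96% in KO and 24.8% in WT. The log2 difference was 0.09 (SE 0.18, limma adjusted p = 0.918), and its 95% interval of -0.29 to 0.48 corresponds to 0.817 to 1.39 times WT. The direction turned to -0.02 without WT mouse 5.

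Fitm1, the FITM protein best known from skeletal muscle, was the gene with the smallest p of the set. Its gene (ENSMUSG00000022215) spans chr14:55575617-55576954 on the plus strand of mm10. It ranged from 9.55 to 13.6 CPM in KO (median 12.2) and from 6.66 to 10.9 CPM in WT (median 9.59). KO mouse 3 lay within the WT range and the other 5 KO mice above it, a pattern of at least 5 KO mice above every WT mouse that 1.56% of all genes tested showed. The opposite pattern, at least 5 KO mice below every WT mouse, was seen in 0 of the 8 genes and in 1.58% of all genes. The means were 11.9 ± 1.31 CPM in KO and 9.41 ± 1.51 in WT. The log2 difference was 0.32 (SE 0.11, 95% interval 0.09 to 0.55, exact permutation p = 0.0108) and did not pass over all genes (limma adjusted p = 0.278), with a rank by p of 327 among 9186 genes. It was 0.38 without KO mouse 3 and 0.23 without WT mouse 6. A muscle light chain, Mylpf, was at 0.175 ± 0.0442 CPM in KO and 0.182 ± 0.0781 CPM in WT, close to the lowest gene mean of the table, 0.151 CPM, and the other 9 muscle markers listed were not analysed here. The antisense gene Gm15932, which shares 109 exon bases with Fitm1, was at 0.179 CPM in KO and 0.224 CPM in WT.

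Fitm2, the widely expressed FITM protein that is needed for droplets to bud into the cytosol, ranged from 53.2 to 70.3 CPM in KO (median 66.3) and from 53.1 to 65.1 CPM in WT (median 58.9). Its gene (ENSMUSG00000048486) spans chr2:163466379-163472629 on the minus strand of mm10. There were 4 KO mice above all WT mice, while KO mice 4 and 5 lay in the lower part of the WT range. The means were 63.8 ± 7.03 CPM in KO and 59.1 ± 4.79 in WT, a log2 difference of 0.10 (SE 0.08, 95% interval -0.06 to 0.27, limma adjusted p = 0.7505).

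**Figure D2:**
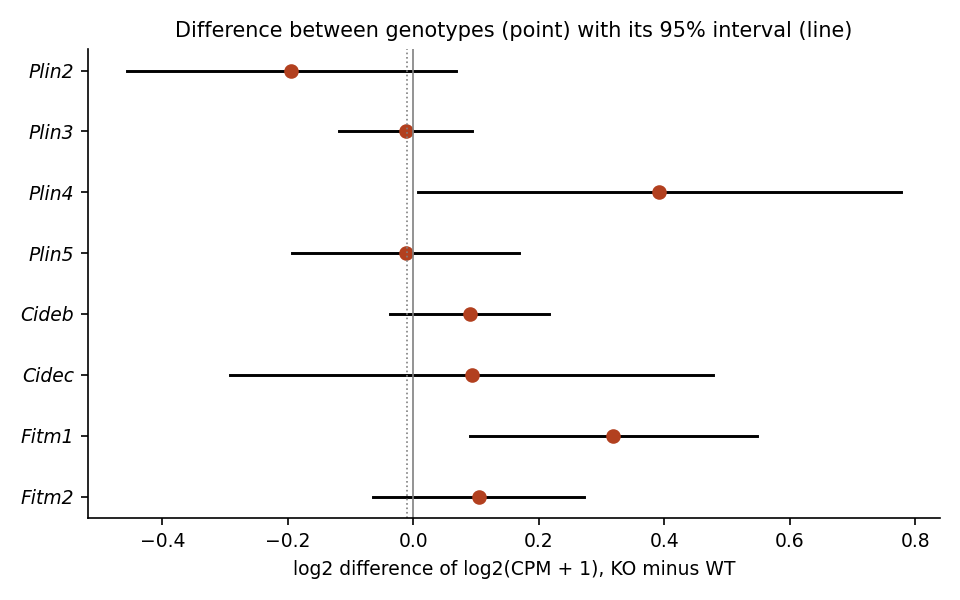
Difference between KO and WT in log2(CPM + 1) for 8 lipid droplet genes, each point the KO minus WT difference and each line its 95% interval from limma; the dotted line is the median of all genes tested. The Plin4 and Fitm1 intervals lie above 0 before adjustment, and those of the other 6 genes include 0.

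On the log2(CPM + 1) scale, the whole 95% interval lay within a 1.5-fold change in either direction for 7 of the 8 genes. The exception was Plin4, whose interval reached 1.71 times WT. Fitm1 came close at 1.46 times WT, and this scale understates changes of genes as low as Fitm1. Its difference was 0.36 (SE 0.11) with quantile normalization and 0.37 (SE 0.12) with library weights. Whether the Fitm1 interval stays within 1.5-fold therefore depends on the setting. These intervals are not adjusted for the number of genes.

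Across individual mice, Plin2 and Plin5 had the highest correlation of any pair of the 8 genes. After the mean of each genotype was removed from log2(CPM + 1), Pearson's r between them over the 12 mice was 0.77 (permutation p = 0.00847, adjusted over 7 relations 0.0593) and Spearman's rho was 0.67 (permutation p = 0.0310, adjusted 0.217). It was 0.68 without KO mouse 1 and WT mouse 1, the mice farthest from the median of Plin2. The adjusted p missed the threshold as deposited, and with median-of-ratios scaling of the libraries r was 0.80 (adjusted permutation p = 0.0265). These adjusted p cover the 7 relations of Plin2 and do not account for picking the highest of all 28 pairs. Plin2 with Cidec gave an r of 0.54 (adjusted permutation p = 0.318), and the other 5 relations of Plin2 had r between -0.28 and 0.38 with adjusted permutation p of 0.493 or more. Among all 28 pairs of the 8 genes, r ran from -0.41 for Plin3 with Fitm1 to 0.77, and 4 pairs exceeded 0.5. Plin4 and Plin5, which are neighbours on chromosome 17, had an r of -0.39. The mice share libraries and scaling between genes, so these values describe the 12 livers.

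The genes whose pattern over the 12 mice was most like that of Plin2, among 9179 genes by Pearson's r after removal of the genotype means, were Ehhadh (r = 0.92), Aldh3a2 (0.91), Cyp4a10 (0.90), Cyp4a14 (0.90) and Esf1 (0.89). Ehhadh is the bifunctional enzyme of peroxisomal fatty acid oxidation, Aldh3a2 oxidises fatty aldehydes, Cyp4a10 and Cyp4a14 hydroxylate the end of fatty acids, and Esf1 is a nucleolar factor. Ehhadh was at 299 ± 84.0 CPM in KO and 382 ± 169 CPM in WT, with 438 CPM in KO mouse 1 and 660 and 513 CPM in WT mice 2 and 1. Those 3 mice also held the 3 highest Plin2 values, and Ehhadh was picked for its likeness to Plin2. Ehhadh did not differ past the threshold between genotypes (log2 difference -0.29, limma adjusted p = 0.789).

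**Figure D3:**
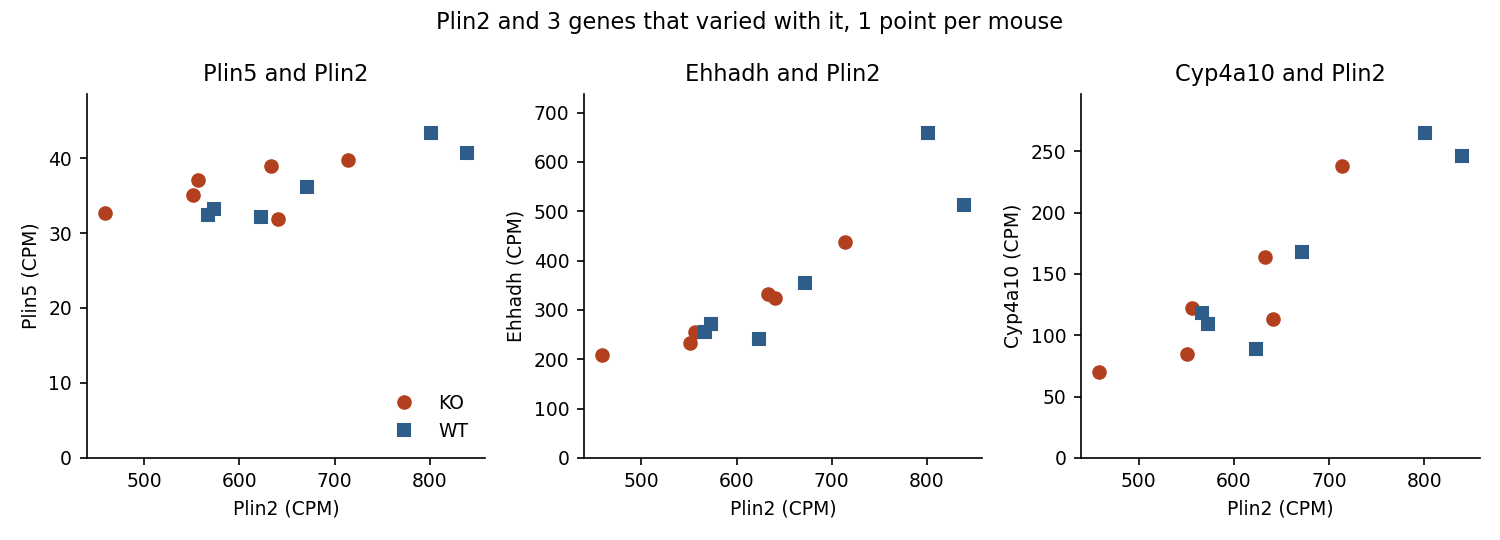
CPM of Plin5, Ehhadh and Cyp4a10 against CPM of Plin2, 1 point per mouse, circles for KO and squares for WT. Mice of both genotypes lie along the same rising band, with r of 0.77, 0.92 and 0.90 after removal of the genotype means. The genes were picked for a high r with Plin2, Ehhadh and Cyp4a10 from 9179 genes, so the band reflects that choice.

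Ehhadh, Cyp4a10 and Cyp4a14 are also on the list of PPAR target genes of fatty liver that was set beside these genes. Of the 23 tested genes on that list, 8 had an r above 0.7 with Plin2 and their median r was 0.57, while 0.926% of all genes had an r above 0.7 and the median of all genes was -0.02. For Plin5 the same counts were 5 of 23 with a median of 0.52, against 0.882% of all genes and a median of 0.03. Slc25a20, the mitochondrial carnitine carrier, had an r of 0.77 with Plin2 and 0.81 with Plin5. Scd1, the stearoyl-CoA desaturase, had an r of -0.14 with Plin2 and -0.49 with Plin5. Fitm2 had 0 of 23 above 0.7, but its median r with the list was 0.34 against -0.28 over all genes, a gap as wide as that of Plin2. Cidec had 2 of 23 above 0.7 and a median of 0.26 against 0.05 over all genes. Fitm1 had a median of 0.12 against -0.08, Cideb -0.10 against -0.22, Plin3 -0.14 against -0.06 and Plin4 -0.25 against 0.04, each with 0 of 23 above 0.7. The genes of the list are correlated with each other, so the counts are a description of these mice.

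**Figure D4:**
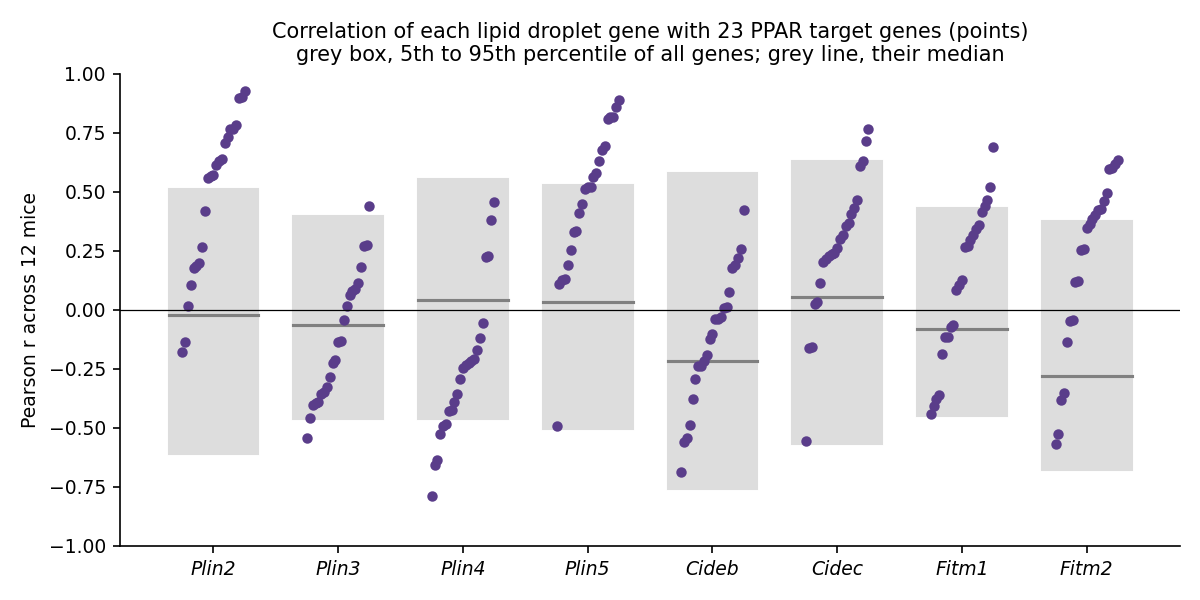
Pearson's r over 12 mice, genotype means removed, between each of 8 lipid droplet genes and 23 PPAR target genes (points), with grey boxes for the 5th to 95th percentile and grey lines for the median of all genes. For Plin2 and Plin5 the medians of the points are 0.57 and 0.52, and 8 and 5 points lie above 0.7.

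The transcript of the receptor itself ran the other way. Ppara had an r of -0.71 with Plin2 and -0.86 with Plin5, and was at 142 ± 14.2 CPM in KO and 125 ± 14.9 in WT (log2 difference 0.19, limma adjusted p = 0.501). Pparg, the receptor known to drive Cidec in fatty liver, had an r of -0.03 with Cidec and -0.57 with Plin2. It was at 22.3 ± 1.17 CPM in KO and 20.1 ± 1.08 CPM in WT (log2 difference 0.14, limma adjusted p = 0.328), with 4 KO mice above all WT mice.

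Because Plin2 and Plin5 had the highest correlation among the pairs, the starts of both genes are shown, from RefSeq on GRCm38.p6, 250 bases before to 50 after the start, 5′ to 3′ on the gene's strand. All 8 genes had such a sequence, and for Plin5, which has more than 1 annotated start, the one farthest upstream is given. Capitals mark AGGTCA, the half-site to which PPARs and other nuclear receptors bind, or its reverse complement TGACCT.
Plin2, chr4:86670010-86670309, minus strand: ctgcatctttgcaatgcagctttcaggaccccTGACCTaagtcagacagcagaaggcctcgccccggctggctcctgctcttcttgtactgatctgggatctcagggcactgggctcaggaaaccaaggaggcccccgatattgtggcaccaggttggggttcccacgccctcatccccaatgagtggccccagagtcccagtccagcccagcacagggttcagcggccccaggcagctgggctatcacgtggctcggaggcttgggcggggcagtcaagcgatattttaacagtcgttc
Plin5, chr17:56117499-56117798, minus strand: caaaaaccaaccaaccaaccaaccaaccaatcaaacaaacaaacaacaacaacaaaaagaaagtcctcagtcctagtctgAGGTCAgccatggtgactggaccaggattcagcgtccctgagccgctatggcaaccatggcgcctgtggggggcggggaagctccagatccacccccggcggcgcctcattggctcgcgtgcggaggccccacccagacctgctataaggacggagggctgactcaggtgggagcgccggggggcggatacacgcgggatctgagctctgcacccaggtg
The match began 218 bases before the start of Plin2 and 170 bases before that of Plin5. The 8 genes had 10 such promoter sequences, of which 3, belonging to Plin2 and Plin5, held AGGTCA on either strand, and 16.3% of all 32851 promoters of this length did. The sequences from the starts of Plin5 overlap each other. The direct repeat of this half-site with 1 base of any kind between the copies, searched on both strands, was in 0 of the 10 and in 0.0396% of all promoters. At so low a share, 0 of 10 says nothing about these genes. A match is a run of letters and was not shown to be a binding site.

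The genes most like Cidec were Adss (r = 0.93), Gm14026 (0.92), Acot9 (0.92), Psmd8 (0.91) and Nrg1 (0.89). Acot9 is a mitochondrial acyl-CoA thioesterase, Psmd8 a proteasome subunit and Nrg1 a growth factor. None of these differed past the threshold between genotypes; Nrg1 was at 38.5 ± 8.61 CPM in KO and 45.6 ± 9.87 CPM in WT (limma adjusted p = 0.733). Against a median of 0.05 over all genes, the median r of Cidec with 10 hepatocyte markers was -0.49, with 14 markers of lipid-laden and recruited macrophages 0.27 and with 5 Kupffer cell markers -0.18.

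Cideb ran with hepatocyte markers and against markers of lipid-laden and recruited macrophages from mouse to mouse. Its median r was 0.50 with 10 hepatocyte markers and -0.65 with 14 markers of lipid-laden and recruited macrophages, all 14 between -0.95 and -0.45. The median over all genes was -0.22, that with 5 Kupffer cell markers was -0.03 and that with 7 markers of activated stellate cells was -0.42. Fitm2 had a median r of -0.53 with the markers of lipid-laden and recruited macrophages, -0.03 with the Kupffer cell markers and -0.60 with 7 markers of activated stellate cells, against -0.28 over all genes. With the hepatocyte markers the median of Fitm2 was 0.36. For Plin2 the medians were 0.29 with the lipid-laden and recruited macrophage markers, -0.34 with the Kupffer cell markers and -0.38 with the hepatocyte markers. For Plin5 they were 0.42, -0.15 and -0.23 in the same order, against 0.03 over all genes. The part of cell composition in these relations was not tested.

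Other proteins of the droplet gave few differences. Of 39 tested genes of that list, 0 rose and 1 fell, Hsd17b13 itself, and the median log2 difference was 0.02. Among all genes tested 0.109% rose and 0.0435% fell, with a median of -0.01. The next by p, none past the threshold, were Pld1, a phospholipase D, at 26.1 ± 3.49 CPM in KO and 33.9 ± 6.16 in WT (limma adjusted p = 0.261), Rdh16, a retinol dehydrogenase, at 79.2 ± 9.77 in KO and 66.5 ± 5.65 in WT (0.279), and Lipe. Hsd17b11, the droplet enzyme most like Hsd17b13, differed by 0.00 on the log2 scale (SE 0.07).

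Among the regulators of lipolysis, Pnpla2, the first lipase of triglyceride breakdown, was at 83.8 ± 10.4 CPM in KO and 76.7 ± 3.29 CPM in WT (limma adjusted p = 0.655). Its activator Abhd5 was at 28.4 ± 1.37 CPM in KO and 27.9 ± 1.49 CPM in WT. Its inhibitor G0s2 was at 43.1 ± 27.6 CPM in KO and 45.7 ± 25.8 CPM in WT, with the wide spread between mice in both genotypes. The droplet biogenesis factor Bscl2, or seipin, was at 27.9 ± 2.18 CPM in KO and 26.7 ± 1.54 CPM in WT. Hilpda, another inhibitor of Pnpla2, lay under the minimum at 3.21 ± 0.796 CPM in KO and 4.24 ± 0.783 in WT, and its limma adjusted p was 0.405 when the minimum was dropped. Plin1 was not analysed here.

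Transcription factors of droplet genes and PPAR targets had no calls either. None of 25 factors passed in limma, 18 of the differences were positive, and the median was 0.08. Over all genes tested 0.152% passed, 45.6% of the differences were positive, 9.8% had an unadjusted p under 0.05, and the median was -0.01. There were 4 factors with an unadjusted p under 0.05. These were Foxa2 (25.6 ± 2.96 CPM in KO and 19.8 ± 3.93 in WT, limma adjusted p = 0.217), Pparg, Klf6 (84.3 ± 12.7 in KO and 104 ± 20.2 in WT, 0.415) and Ppara. None of 23 PPAR targets passed, 15 of the differences were negative, and the median was -0.06. For 1 of them the unadjusted p was under 0.05. That gene was Lpl, the lipoprotein lipase, at 251 ± 29.98 CPM in KO and 330.4 ± 65.2 in WT (limma adjusted p = 0.272), which is also 1 of the 14 macrophage markers. Next by p were Pdk4, a brake on glucose oxidation (29.9 ± 11.5 CPM in KO and 52.2 ± 26.5 in WT, 0.536), the mitochondrial carrier Ucp2 (122 ± 19.3 in KO and 139 ± 12.6 in WT, 0.542) and the pantetheinase Vnn1 (89.2 ± 14.1 in KO and 79.1 ± 8.27 in WT, 0.682).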

How the data were processed

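Per the labels' protocols, RNA came from 25 to 100 mg of liver and libraries from 1 µg of total RNA after removal of globin and ribosomal RNA, with a strand-keeping kit, although the molecule label says polyA RNA. The submitters' processing notes name mm10, STAR 2.7.3a, Partek 10.0 and DESeq2 1.14.1 without roles; which tool, annotation and strand option gave the counts is not stated there. Values deposited by the authors are CPM in 1 table, whose 12 columns each sum to 1000000 over 20143 genes. Of its low values, 70.9% to 75.1% per library lay within 0.02 of a whole multiple of 1 step, where evenly spread values would give 4%. That step gave each library's depth, but the libraries kept too many uneven values for whole reads to be rebuilt, so count tests were left out. Errors from depth refer to counting alone.

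Symbols matched 20055 identifiers in GENCODE vM21 (mm10) and 88 had none. Lengths are unions of annotated exons. Values were converted to log2(CPM + 1), which understates changes of low genes. Genes averaging 10 CPM or more were compared with limma 3.58.1 in R 4.3.3 (mean trend, two-sided, Benjamini-Hochberg over 9186 genes, threshold 0.05). Exact two-sided permutation tests used all 924 assignments of mice, and correlations 100000 permutations within genotype (Python 3.11.15, SciPy 1.17.1). The labels give no litter or batch, so p-values measure the spread between these mice. On simulated data with 9186 genes, limma recovered 50% of genes changed 1.2-fold and 90% of those changed 1.5-fold. Of the 182 calls made there, 14 were false. The measured data gave 14 calls in all, and with fewer calls the adjusted threshold is stricter. The lipid droplet genes also had a larger median standard error, 0.10 against 0.08 for all genes tested. These percentages therefore do not give the chance of detecting a change in the lipid droplet genes.

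The members, gene lists and tests were chosen with earlier results of these data known. Named are the 9 listed genes, Hsd17b13, the genes called and the 4 with the smallest p of each pathway list, 9 genes fixed by role, and the 5 genes most like Plin2 and Cidec over the mice. Slc25a20, Scd1, Nop9, Gm15932, Mylpf, Lipe, Fabp4, Car3, Alb, Spp1 and those in the other observations were named after their values were seen. Alternatives were other pseudocounts, minimum means, scalings, variance models, a block on mouse number and fits without single mice or without KO mice 1 and 3, which stood apart in those earlier results.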

Additional observations from a re-analysis of the deposited data

How the results depend on the processing

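No alternative called any of the 8 genes. Fitm1 and Plin4 stayed positive and Plin2 negative under all 22 alternatives, from 0.18 to 0.39, from 0.26 to 0.62 and from -0.25 to -0.12 on the log2 scale; the lowest adjusted p were 0.138, 0.0809 and 0.419. Cideb and Fitm2 also kept their direction. Differences close to 0 turned. Leaving out 1 mouse moved Plin3 between -0.045 and 0.0042, Plin5 between -0.044 and 0.040 and Cidec between -0.020 and 0.20. Plin5 was 0.0020 with quantile normalization, and Cidec was -0.043 with library weights and -0.017 without KO mice 1 and 3. The cause was not tested. The count over all genes, 14, was 31 at a minimum mean of 1 CPM, 29 with no minimum, 35 with library weights, 89 without KO mice 1 and 3, and 9 to 25 when 1 mouse was left out, with 25 without KO mouse 3 and 9 without WT mouse 3. Correlations of Plin2 turned for Fitm1 when genotype means were kept (-0.063) and for Cideb with median-of-ratios scaling (0.031), where that with Plin5 passed (0.80). Whether mouse numbers pair the samples could not be decided from 6 numbers without labels of litter or batch. Deviations of same-numbered mice correlated between -0.51 and 0.39, above 0.1 in 4 of 6 pairs, against a median of -0.03 for other numbers. Of the KO mice, 0 of 6 correlated best with their own number. With the mouse number as a replicate block, 0 of the 8 genes and 11 of all genes were called. Each number has 1 mouse of each genotype, so this block cannot change the differences (Plin2 -0.19, Plin4 0.39, Fitm1 0.32), only their standard errors. The standard error fell from 0.12 to 0.08 for Plin2 and from 0.18 to 0.13 for Plin4. It fell slightly for Fitm1, Cideb and Fitm2 and rose slightly for Plin3, Plin5 and Cidec. The counting error behind single values of the 8 genes was 4.71% or less.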

Other observations

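The genes that ran most strongly against Plin5 across the 12 mice, after removal of the genotype means, were Nr1d2 (r = -0.93), Ppara (r = -0.86) and Upp2 (r = -0.84). Nr1d2 encodes REV-ERB beta, a repressor of the circadian clock. It was at 107 ± 13.7 CPM in KO and 85.5 ± 19.3 CPM in WT (limma adjusted p = 0.403), with 97.3 CPM in KO mouse 1 and 61.6 and 65.6 CPM in WT mice 1 and 2. In WT those 2 mice had the lowest Nr1d2 and the highest Plin2 and Plin5. Upp2, a uridine phosphorylase, was at 107 ± 62.4 CPM in KO and 59.3 ± 28.4 CPM in WT (limma adjusted p = 0.536).

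Genes that ran against Plin2 most strongly were Stt3a (r = -0.97), an oligosaccharyltransferase subunit of the endoplasmic reticulum, Npc1 (r = -0.95), the lysosomal cholesterol transporter, and Ppib (r = -0.93), a prolyl isomerase of the endoplasmic reticulum. Stt3a was at 131 ± 12.6 CPM in KO and 129 ± 14.1 CPM in WT. For Cideb they were Skap2 (r = -0.95), Ms4a6d (r = -0.95) and Ccr2 (r = -0.95), which are genes of white blood cells. Genes most like Plin4 included Tsc22d3 (r = 0.89), a glucocorticoid-induced gene, at 47.4 ± 10.8 CPM in KO and 44.5 ± 6.70 CPM in WT. By r with Plin4, Tsc22d3 had rank 4, after Atg16l2 (0.92), Kdm2b (0.92) and Rsrp1 (0.90). Fitm1 ran with Irf7 (r = 0.82), an interferon-induced transcription factor, at 141 ± 52.6 CPM in KO and 85.3 ± 22.4 CPM in WT (limma adjusted p = 0.291). By r with Fitm1, Irf7 had rank 4, after Osgin1 (0.87), Endod1 (0.83) and Gm5096 (0.82). These genes were picked from the ends of a ranking of 9179 genes, so the size of r reflects that choice.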
